A study of Rattus norvegicus with 12 samples.

Results

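The genes described here are the Wnt ligands, their receptors and coreceptors, the R-spondin axis, the secreted antagonists and a few intracellular components, measured in rat kidneys injured by ischemia and reperfusion. Members were chosen by gene symbol alone, from rows annotated with 1 symbol. They were the Wnt, Fzd, Sfrp and Dkk genes with a numbered symbol, together with Ryk, Ror1, Ror2, Lrp5, Lrp6, Wif1, Frzb, Lgr4, Lgr5, Axin1, Axin2, Lef1, Tcf7, Rspo1, Rspo2, Rspo3 and Porcn. This gave 53 genes, each with 1 row and a value on all 12 arrays, of 18166 genes tested. Of the 54 RefSeq genes that meet the rule, Fzd3 has no row with 1 symbol, and a further row that names Lrp5 beside another gene was not used. The members comprised 20 genes on the ligand side (19 Wnt genes and Porcn), 14 receptors, 5 genes of the R-spondin axis, 10 antagonists and 4 intracellular genes.

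The groups were kidneys taken at day 2 after injury from rats that received a treatment labelled anti-miR-182, the usual name of an inhibitor against that microRNA, then placebo kidneys of day 2, anti-miR-182 kidneys of day 7 and placebo kidneys of day 7. Each group held 3 arrays, and each array came from a different animal. All 12 kidneys had been injured by interrupting and then restoring their blood flow (ischemia-reperfusion injury), and an uninjured kidney is not analysed here. The labels used here do not state the rats' strain, sex and age or how much inhibitor they received. Whole kidney tissue was measured, so fewer cells of a type and less RNA per cell cannot be told apart. Nothing beyond the animal codes separates the samples of a group. The p-values set a difference between groups against the spread between animals, estimated over all groups together.

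Wnt proteins are secreted, lipid-modified signals that bind Frizzled receptors together with the coreceptors Lrp5 and Lrp6, or other receptors such as Ror2 and Ryk. In the canonical branch, binding stops the destruction of beta-catenin, which then acts with Lef1 and Tcf proteins on target genes such as Axin2. R-spondins and their Lgr receptors increase the number of receptors at the surface, and Sfrp, Dkk and Wif1 proteins restrain the signal outside the cell. In the kidney the pathway is known for building nephrons in the embryo and for becoming active again after injury, in repair and in scarring.

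The sequences printed here are the inhibited microRNA and the promoters of 2 members. The RefSeq mature sequence of rat miR-182 (GRCr8, chr4:59752249-59752273, minus strand) is given because its inhibition defines the groups, with the seed, bases 2 to 8, in capitals. The promoter of Ryk (GRCr8, chr8:112297931-112298230, plus strand) is shown because Ryk had the smallest p of all members at day 2. The promoter of Axin2 (GRCr8, chr10:94398535-94398834, plus strand) is shown because Axin2 is a standard readout of canonical signalling. Each promoter runs from 250 bases before to 50 after the start, and capitals mark CTTTGAA or CTTTGAT, or else CTTTGTA or CTTTGTT, the letters of the Lef1 and Tcf binding motif, searched on both strands.
rno-miR-182: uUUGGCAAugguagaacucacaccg
Ryk promoter: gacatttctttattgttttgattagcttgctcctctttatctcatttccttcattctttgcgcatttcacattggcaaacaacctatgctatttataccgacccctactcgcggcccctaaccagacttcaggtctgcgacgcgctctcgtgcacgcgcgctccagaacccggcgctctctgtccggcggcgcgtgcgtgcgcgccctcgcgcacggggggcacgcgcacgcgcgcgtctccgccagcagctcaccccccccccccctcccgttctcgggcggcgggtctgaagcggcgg
Axin2 promoter: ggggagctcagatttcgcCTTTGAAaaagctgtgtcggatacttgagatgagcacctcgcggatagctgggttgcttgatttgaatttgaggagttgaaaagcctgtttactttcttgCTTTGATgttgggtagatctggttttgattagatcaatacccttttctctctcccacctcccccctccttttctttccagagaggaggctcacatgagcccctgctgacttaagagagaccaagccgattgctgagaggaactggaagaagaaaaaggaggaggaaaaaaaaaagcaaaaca
The Axin2 window held 2 matches and the Ryk window 0. Of 38 member promoters in the RefSeq set, 7 held a match (18.4%), against 5719 of 33469 promoters of the same length (17.1%). Members were counted by the first promoter listed for a gene and the background by every promoter, so the 2 shares are not strictly alike. The other members with a match were Dkk1, Fzd7, Sfrp5, Tcf7, Wnt3 and Wnt8a. A match is a description of letters and does not show binding.

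Values are log2 signals, in which a difference of 1 is a doubling. Array medians lay between 5.84 and 5.93 at day 7 and between 5.98 and 6.10 at day 2. The first principal component of all genes (51.9% of the variance) separated the days, and on the next (10.2%) replicate 3 among the day 2 anti-miR-182 kidneys stood apart at 29.4, with the other arrays between -15.4 and 9.18. At day 2 the differences of 10 of 53 members turned sign without that array, all of them 0.21 or smaller in size. Many of the values that moved with it, though not all, are given both ways. The labelled tissue was borne out by the proximal tubule transporter Slc34a1, at 9.28 to 10.5. Mir182, the row of the inhibited microRNA's own gene, lay between 4.93 and 6.57 in the 6 kidneys given anti-miR-182 and between 3.97 and 4.84 in the 6 placebo kidneys. Whether that row reads the mature microRNA is not stated, so it is no check of the inhibition. The members were mostly dim: 33 of 53 lay in the dimmest 50% of genes and 2, Sfrp4 and Rspo3, in the dimmest 25%, and detection calls were not used here. The median SD of a member among the animals of a group was 0.170 for anti-miR-182 kidneys and 0.0988 for placebo kidneys of day 2, and 0.140 for anti-miR-182 kidneys and 0.120 for placebo kidneys of day 7.

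At day 2 the question was whether the inhibitor went with other levels of Wnt pathway RNAs than placebo early after injury. The receptor Ryk lay lower in every kidney given the inhibitor, by 1.48-fold, and 18 of the 19 Wnt ligands had a higher mean, but none of the 53 members passed the test over all genes. To pass, a member needed a p under 0.05 after Benjamini-Hochberg adjustment over all genes in limma, a linear model with a moderated variance. The count was 0 of 53 members, against 0 of all 18166 genes (0%). At an unadjusted p under 0.05 it was 3 of 53 (5.66%), against 6.61% of all genes. The median log2 difference of the members was 0.04, beside 0.03 over all genes, with 31 members higher and 22 lower (24 and 29 after quantile normalization). The groups did not overlap for 8 members (15.1%), against 12.3% of all genes (8.06% higher and 4.24% lower). Of these, Wnt7b, Wnt5b, Wnt5a, Sfrp2 and Fzd10 were higher and Ryk, Fzd5 and Rspo3 lower under the inhibitor.

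Among the ligands, Wnt7b, which in mice is needed to form the renal medulla, had log2 signals of 5.78, 6.04 and 5.65 in anti-miR-182 kidneys at day 2, against 5.49, 5.51 and 5.45 in placebo kidneys. The placebo animals lay within a narrow band below every treated animal. The log2 difference was 0.34 ± 0.14 (SE; limma, unadjusted p = 0.0273, adjusted p = 0.754), and 0.42 without replicate 3 of the treated group (adjusted p = 0.549 in limma). Wnt5b, a ligand of the branch that does not use beta-catenin, had 6.66, 6.71 and 6.46 in anti-miR-182 kidneys, against 6.41, 6.31 and 6.28 in placebo kidneys. Its groups did not overlap either, although the lowest treated animal and the highest placebo animal lay close together. The difference was 0.28 ± 0.12 (SE; limma, unadjusted p = 0.0403, adjusted p = 0.754), and 0.35 without replicate 3.

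The 19 Wnt genes had a median difference of 0.13 at day 2, with Wnt6 (-0.03) the only one lower. Beside 58.7% of all genes with a difference above 0, the count of 18 depended on scaling: after quantile normalization of all arrays together it was 12 of 19 with a median of 0.06, and after centring each array on its median 17 of 19 with 0.12. Without replicate 3 of the treated group 19 of 19 were higher, with a median of 0.20. The ligands at the upper end after Wnt7b and Wnt5b were Wnt8a (0.26), Wnt5a (0.23), Wnt11 (0.22) and Wnt9b (0.21), the last known from mice to induce nephrons. Wnt4, which in mice turns the induced mesenchyme into epithelium, differed by 0.20. Wnt9a (0.01), Wnt16 (0.05), Wnt3a (0.05) and Wnt1 (0.05) lay near 0, and so did Porcn (-0.04), the enzyme that attaches the lipid to Wnt proteins. Without replicate 3 Wnt9b was at 0.08, Wnt4 at 0.30, Wnt8a at 0.39, Wnt9a at 0.18, Wnt16 at 0.20, Wnt3a at 0.02 and Porcn at 0.04. Markers of 3 other cell types moved in the same direction, with list means that did not overlap. The means of the proximal tubule, podocyte, fibroblast and matrix, macrophage, lymphocyte and urothelium lists overlapped between the groups. All 11 genes of the distal tubule and collecting duct had a higher mean under the inhibitor (median 0.33), with list means of 8.35 to 8.84 in anti-miR-182 kidneys and 8.17 to 8.24 in placebo kidneys. All 4 endothelium genes were higher (median 0.15), from 0.08 for Cdh5 to 0.79 for Tek. Their list means were 8.25 to 8.56 in anti-miR-182 kidneys and 8.03 to 8.11 in placebo kidneys. Cdh5 itself overlapped, with 8.10, 8.02 and 7.70 in anti-miR-182 kidneys against 8.12, 7.75 and 7.71 in placebo kidneys. All 5 genes of the loop of Henle were higher (median 0.10), from 0.01 for Cldn16 to 1.02 for Egf. Without replicate 3 of the treated group these 2 genes were at 0.10 and 0.805. The loop of Henle list means were 10.28 to 10.50 in anti-miR-182 kidneys and 9.92 to 10.17 in placebo kidneys. How far single genes such as Tek and Egf carried the separate list means was not tested. The part of these cell types in the ligand values was not tested.

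Of the receptors, Ryk, a Wnt receptor with an inactive kinase domain, had log2 signals of 7.58, 7.70 and 7.80 in anti-miR-182 kidneys at day 2, against 8.24, 8.24 and 8.32 in placebo kidneys. Every treated animal lay below every placebo animal, and the gap between the groups was wider than the range within either. The difference was -0.57 ± 0.11 (SE), with an unadjusted p of 0.000147 and an adjusted p of 0.444 in limma over all genes. Without replicate 3 of the treated group, the nearest to the placebo animals, it was -0.62 (adjusted p = 0.344). At day 7 the same gene had 7.70, 7.82 and 8.02 in anti-miR-182 kidneys, against 7.87, 7.86 and 7.95 in placebo kidneys, and the groups overlapped (difference -0.05).

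Frizzled receptors went both ways at day 2, with 5 of 9 higher and a median difference of 0.04. Fzd8 had 5.74, 6.07 and 5.73 in anti-miR-182 kidneys, against 6.12, 5.93 and 6.07 in placebo kidneys, with overlapping groups (-0.19 ± 0.13, SE; limma, adjusted p = 0.807; -0.13 without replicate 3). Fzd5 had 6.50, 6.37 and 6.44 in anti-miR-182 kidneys, against 6.63, 6.57 and 6.54 in placebo kidneys. Its groups were separate but close (-0.15). Fzd9 (0.20), Fzd10 (0.17) and Fzd7 (0.14) had the largest positive differences of the family, and Fzd4, which also binds the ligand norrin, differed by 0.10. Without replicate 3 Fzd9 was at 0.28, Fzd10 at 0.22, Fzd7 at 0.28 and Fzd4 at 0.24. The coreceptors Lrp5 (-0.14) and Lrp6 (-0.05) turned to 0.11 and 0.04 without replicate 3. The receptor kinases Ror1 (-0.06) and Ror2 (0.04) differed little beside their standard errors.

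In the R-spondin axis, the receptor Lgr4 had 8.76, 9.13 and 8.88 in anti-miR-182 kidneys at day 2, against 8.99, 9.21 and 9.06 in placebo kidneys. The groups overlapped, with a difference of -0.16 ± 0.12 (SE; limma, adjusted p = 0.832) and of -0.14 without replicate 3. Lgr5, a receptor of the same kind and itself a Wnt target, differed by 0.07 (0.03 without replicate 3). The ligands Rspo1 (-0.06) and Rspo2 (0.06; 0.17 without replicate 3) lay close to 0. Rspo3 had 4.60, 4.62 and 4.42 in anti-miR-182 kidneys, against 4.75, 4.65 and 4.63 in placebo kidneys. These groups touched without overlapping, at a signal among the dimmest of all genes (-0.13, and -0.06 without replicate 3).

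Antagonists had a median difference of -0.04 at day 2, with 7 of 10 lower, and 5 of 10 without replicate 3 of the treated group. Sfrp2, a secreted protein related to the Frizzled ligand-binding domain, had 7.53, 7.64 and 7.69 in anti-miR-182 kidneys, against 7.43, 7.23 and 7.36 in placebo kidneys. All treated animals lay above all placebo animals, with a difference of 0.28 ± 0.15 (SE; limma, unadjusted p = 0.0753, adjusted p = 0.764) and of 0.24 without replicate 3. Sfrp1 had 8.33, 7.93 and 6.89 in anti-miR-182 kidneys, against 8.10, 7.68 and 7.98 in placebo kidneys. The lowest of these 6 values was that of the array that stands apart, and the difference of -0.20 turned to 0.21 without it. All 4 Dkk genes had small negative differences of -0.12 to -0.03. After quantile normalization 1 of the 4 lay above 0, and without replicate 3 it was 2. Sfrp4 had 4.63, 4.92 and 4.72 in anti-miR-182 kidneys, against 4.74, 4.69 and 4.99 in placebo kidneys, so the groups overlapped at day 2.

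The intracellular members, which include feedback targets of canonical signalling, had differences close to 0, and none passed. Axin2 had 6.76, 6.39 and 6.27 in anti-miR-182 kidneys at day 2, against 6.46, 6.49 and 6.39 in placebo kidneys (0.03 ± 0.13, SE). The highest and the lowest value were both in the treated group. Axin1, a scaffold of the complex that destroys beta-catenin, differed by 0.01, and the transcription factors Lef1 and Tcf7 by -0.05 and -0.02. Without replicate 3 Axin2 was at 0.13, Axin1 at 0.18, Lef1 at 0.06 and Tcf7 at 0.02.

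**Figure D1:**
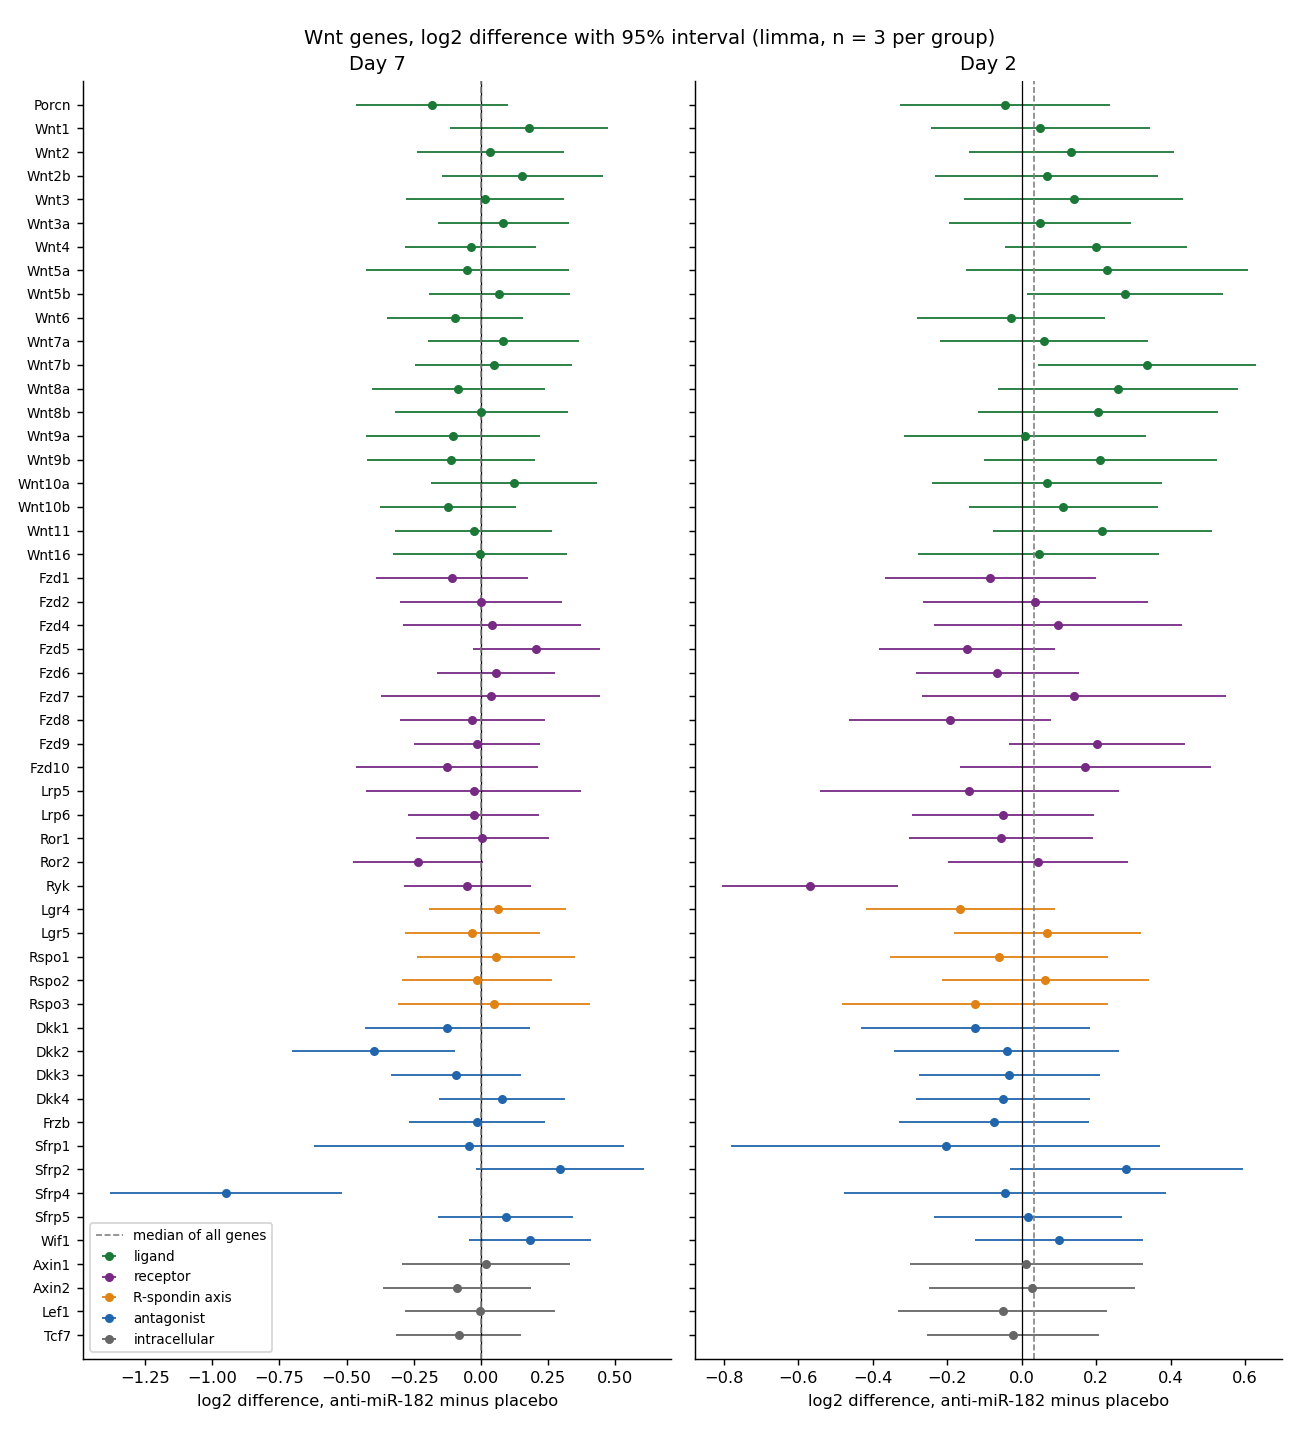
Log2 difference between anti-miR-182 and placebo kidneys for each of the 53 Wnt genes at day 7 and day 2, with 95% intervals from limma (3 animals per group) and coloured by role; the dashed line is the median of all genes. Ryk at day 2 (-0.57) and Sfrp4 at day 7 (-0.95) lie farthest from 0, and most intervals include 0.

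At day 7 the same comparison asked whether the groups differed later after injury. The antagonist Sfrp4 was 1.93-fold lower in anti-miR-182 kidneys and the antagonist Dkk2 1.32-fold lower, with no overlap between animals, while the ligands showed no common direction. In limma 0 of 53 members passed over all genes, against 0 of 18166 (0%). At an unadjusted p under 0.05 the count was 2 of 53, Sfrp4 and Dkk2, against 3.26% of all genes. The groups did not overlap for 4 members (7.55%), against 7.26% of all genes (3.5% higher and 3.75% lower), and all 4 were lower under the inhibitor: Sfrp4, Dkk2, Ror2 and Wnt6. The median difference of the members was -0.01, with 23 higher and 30 lower (29 and 24 after centring), and 49.8% of all genes were higher.

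Sfrp4, which binds Wnt proteins outside the cell, had log2 signals of 5.74, 5.51 and 5.34 in anti-miR-182 kidneys at day 7, against 6.01, 6.41 and 7.01 in placebo kidneys. The placebo animals spread over a full log2 unit, and the lowest of them lay above the highest treated animal. The difference was -0.95 ± 0.20 (SE), with an unadjusted p of 0.000338 and an adjusted p of 0.999 in limma. Leaving out 1 day 7 array in turn gave values between -1.18, without replicate 1 of placebo (adjusted p = 0.0758), and -0.68, without replicate 3 of placebo (adjusted p = 0.766).

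Markers of some other cell types, though not of all that were listed, moved in the same direction as Sfrp4 at day 7. Of 11 fibroblast and matrix genes 10 were lower under the inhibitor, with a median difference of -0.35, and the list means were 7.53 to 7.57 in anti-miR-182 kidneys and 7.79 to 8.42 in placebo kidneys. Of 9 macrophage genes all 9 were lower (-0.39), with list means of 6.93 to 7.09 in anti-miR-182 kidneys and 6.90 to 8.20 in placebo kidneys. Of 6 urothelium genes 5 were lower (-0.53), with 5.61 to 5.73 in anti-miR-182 kidneys and 5.63 to 6.57 in placebo kidneys. None of these genes passed in limma (adjusted p = 0.999 each). Placebo replicate 3, with the most Sfrp4, had a matrix mean of 7.79 and a urothelium mean of 5.63. Placebo replicate 2 had the highest matrix and macrophage means, and without it the matrix median was -0.15, the macrophage count 7 of 9 lower with a median of -0.06, and the Sfrp4 difference -0.98. The part of these cell types in the Sfrp4 values was not tested.

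**Figure D2:**
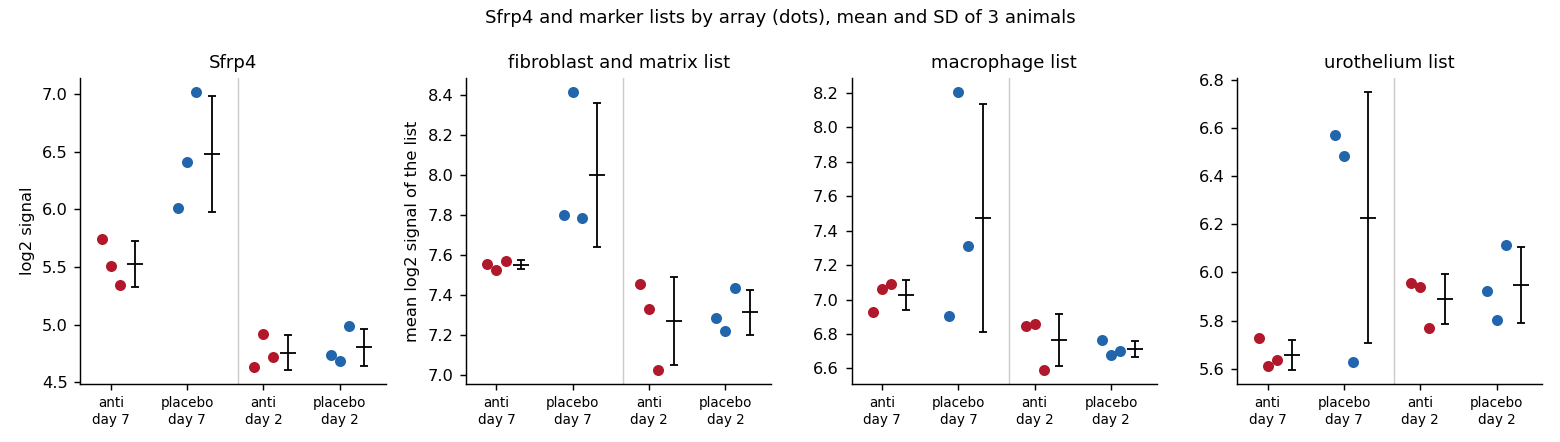
Log2 signal of Sfrp4 and mean log2 signal of the fibroblast and matrix, macrophage and urothelium marker lists on each array (dots, 3 animals per group), with mean and SD. At day 7 the anti-miR-182 animals lie below all placebo animals for Sfrp4 and for the fibroblast and matrix list, and the lists overlap between groups for macrophage and urothelium.

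Dkk2, which binds the Lrp5 and Lrp6 coreceptors, had 8.30, 8.46 and 8.57 in anti-miR-182 kidneys at day 7, against 8.71, 8.90 and 8.93 in placebo kidneys. No treated animal reached the lowest placebo animal (-0.40 ± 0.14, SE; limma, unadjusted p = 0.0132, adjusted p = 0.999). Sfrp2 went the other way, as at day 2, with 6.97, 7.04 and 6.53 in anti-miR-182 kidneys and 6.58, 6.33 and 6.76 in placebo kidneys. Here replicate 3 of the treated group lay among the placebo values (0.29 ± 0.15, SE; limma, unadjusted p = 0.0634, adjusted p = 0.999). Wif1, a secreted protein that binds Wnt ligands directly, had 6.25, 6.43 and 6.32 in anti-miR-182 kidneys, against 6.07, 6.27 and 6.11 in placebo kidneys. Its groups overlapped by 1 animal (0.18 ± 0.11, SE; limma, adjusted p = 0.999). The other antagonists differed by -0.13 (Dkk1) to 0.09 (Sfrp5), with Dkk3 at -0.09, Dkk4 at 0.08, Sfrp1 at -0.04 and Frzb at -0.01.

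Of the receptors at day 7, Ror2, a receptor kinase for Wnt5a, had 6.25, 6.21 and 6.05 in anti-miR-182 kidneys, against 6.44, 6.35 and 6.43 in placebo kidneys. The groups did not overlap (-0.23 ± 0.11, SE; limma, unadjusted p = 0.0562, adjusted p = 0.999). Fzd5 had 6.74, 6.77 and 6.69 in anti-miR-182 kidneys, against 6.74, 6.44 and 6.40 in placebo kidneys. Replicate 1 of placebo lay level with the treated animals and the other 2 placebo animals below them (0.21 ± 0.11, SE; limma, adjusted p = 0.999). The other Frizzled genes differed by -0.13 (Fzd10) to 0.06 (Fzd6), Lrp5 and Lrp6 by -0.03 each and Ror1 by 0.00. R-spondin axis genes differed by -0.03 (Lgr5) to 0.06 (Lgr4).

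The 19 Wnt ligands were evenly divided at day 7, with 10 higher and 9 lower. Their differences ran from -0.12 (Wnt10b) to 0.18 (Wnt1), and the 4 ligands with the largest differences at day 2 were at 0.05 (Wnt7b), 0.07 (Wnt5b), -0.08 (Wnt8a) and -0.05 (Wnt5a). Wnt7b had 5.66, 5.94 and 5.75 in anti-miR-182 kidneys, against 5.52, 5.73 and 5.96 in placebo kidneys, and the groups overlapped fully. Wnt6 had 6.20, 6.19 and 6.15 in anti-miR-182 kidneys, against 6.32, 6.29 and 6.22 in placebo kidneys. These groups were separate by a small margin (-0.10). Porcn differed by -0.18. Axin2 had 6.25, 6.26 and 6.21 in anti-miR-182 kidneys, against 6.20, 6.48 and 6.30 in placebo kidneys (-0.09 ± 0.13, SE). Tcf7 differed by -0.08, Axin1 by 0.02 and Lef1 by -0.00.

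**Figure D3:**
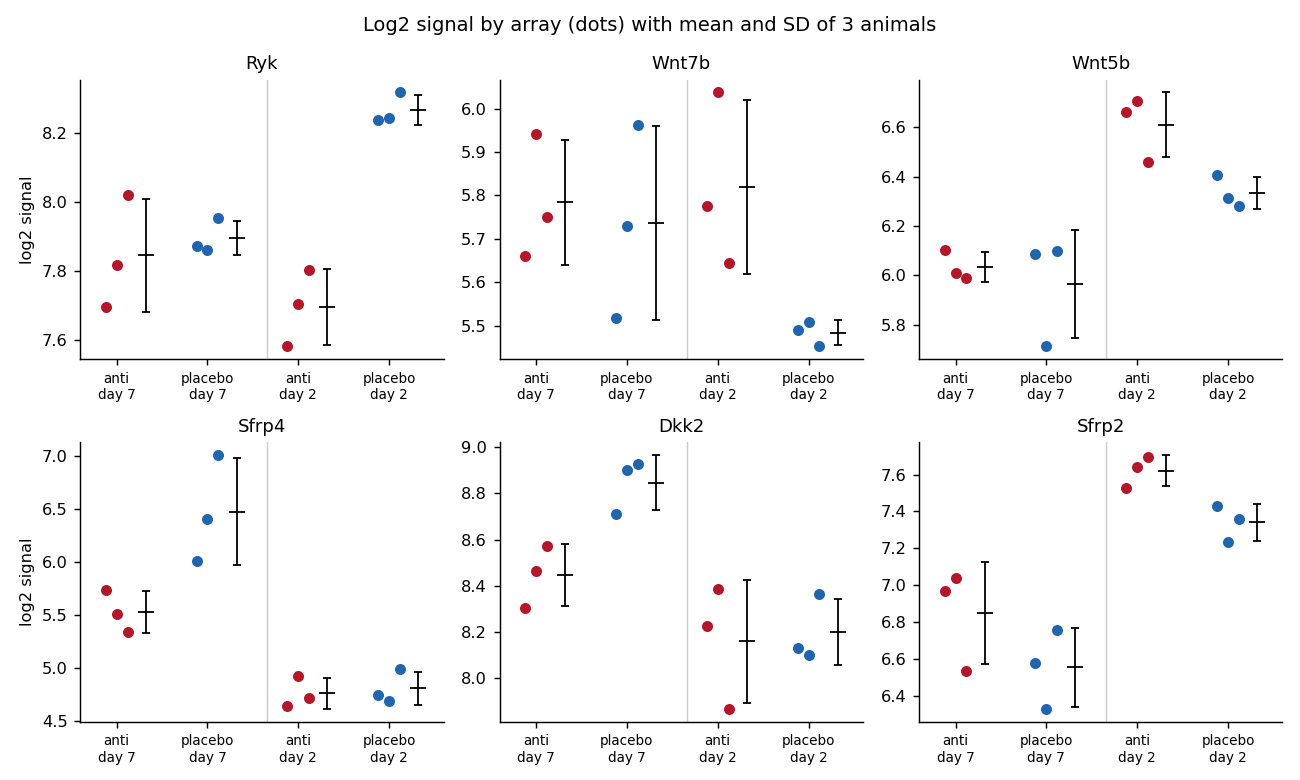
Log2 signal of 6 Wnt genes on each array (dots, 3 animals per group), with mean and SD, at day 7 and day 2. Ryk is separate between anti-miR-182 and placebo at day 2 and overlaps at day 7, Sfrp4 and Dkk2 are separate at day 7 and overlap at day 2, and Sfrp2 is higher at day 2 in all 6 kidneys than at day 7.

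Averaged over both days, 0 of 53 members passed in limma, against 1 of 18166 genes (0.0055%), the higher Mir182, and 4 of 53 had an unadjusted p under 0.05, against 5.27% of all genes. These were Ryk (-0.31 ± 0.08, SE; adjusted p = 0.741), Sfrp4 (-0.50 ± 0.14; 0.854), Sfrp2 (0.29 ± 0.10; 0.888) and Dkk2 (-0.22 ± 0.10; 0.888). Sfrp2 had nearly the same difference at both times (0.28 at day 2 and 0.29 at day 7), whereas the Ryk value came from day 2 and the Sfrp4 and Dkk2 values from day 7. For the difference of the treatment effect, day 7 minus day 2, 0 of 53 members passed in limma, against 0 of all genes (0%), and 3 had an unadjusted p under 0.05, against 3.92% of all genes. They were Ryk (0.52 ± 0.16, SE; unadjusted p = 0.0051, adjusted p = 0.999), Sfrp4 (-0.90 ± 0.29; 0.00688, 0.999) and Fzd5 (0.35 ± 0.16; 0.039, 0.999). A change of the inhibitor's effect with time was therefore not shown for any member. No member had separate groups at both times, against 0.738% of all genes.

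The course after injury was compared as day 7 against day 2 within each treatment. Sfrp4 rose and Sfrp2 fell in both anti-miR-182 and placebo kidneys, Dkk2 rose in placebo kidneys, Wif1 rose in anti-miR-182 kidneys, and several Wnt ligands fell. The median of all genes was itself lower at day 7, by -0.21 under anti-miR-182 and -0.18 under placebo, and 190 rows of the table have values for day 7 only. Day and a possible separate normalization of the 2 days cannot be told apart. Some values, such as those of Sfrp4, Sfrp2, Dkk2 and Wif1, are therefore also given relative to that median. The others are as deposited and include this shift of all genes, unless a scaling is named. Under anti-miR-182, 13 of 53 members passed (24.5%; 2 higher, 11 lower), against 27.5% of all genes (2.68% higher, 24.9% lower). In placebo, 9 of 53 passed (17%; 2 higher, 7 lower), against 28% of all genes (4.22% higher, 23.7% lower). As deposited the members' shares were below those of all genes. In each treatment 16 members were higher and 37 lower at day 7, but after centring 31 were higher under anti-miR-182 and 30 in placebo. After centring each array on its median most calls were rises: 9 members passed under anti-miR-182 (17%; 7 higher, 2 lower), against 13.7% of all genes, and 6 in placebo (11.3%; 5 higher, 1 lower), against 17.8%. After quantile normalization 12 passed under anti-miR-182 (22.6%; 9 higher, 3 lower), against 14.8%, and 5 in placebo (9.43%; 4 higher, 1 lower), against 16%. Without the array that stands apart the counts were 15 under anti-miR-182 (28.3%), against 26.6%, and 10 in placebo (18.9%), against 31.8%. Whether the members' share lay above or below that of all genes under anti-miR-182 thus depended on the setting. The counts also moved with single arrays: 7 and 8 passed under anti-miR-182 without its day 7 replicate 1 or 3. In placebo, 3 passed without its day 2 replicate 1 and 4 without its day 7 replicate 2. Shares of all genes are not given for these fits, so the lower counts are not read as particular to the members.

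Sfrp4 had the largest rise of the members. In anti-miR-182 kidneys it reached 5.34 to 5.74 at day 7, against 4.63 to 4.92 at day 2, a log2 difference of 0.77 ± 0.20 (SE; limma, adjusted p = 0.0136), or 0.98 relative to the median of all genes. In placebo kidneys it reached 6.01 to 7.01 at day 7, against 4.69 to 4.99 at day 2, a 3.19-fold rise (1.67 ± 0.20, SE; limma, adjusted p = 0.000183; 1.85 relative to the median). Both rises passed under all 3 scalings. Under anti-miR-182 the call ended without day 7 replicate 1 (0.67, adjusted p = 0.057 in limma) and with the animal number above or below 90 as a covariate (0.44, adjusted p = 0.134). All day 2 animals had numbers above 90. At day 7 only anti-miR-182 replicate 3 and placebo replicate 1 did, so that covariate could hardly be told apart from day. The rises in the 2 treatments share no array, and their difference is the treatment-by-day value of -0.90 given above, which did not pass.

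Sfrp2 fell by similar amounts in both treatments. It had 6.53 to 7.04 at day 7 against 7.53 to 7.69 at day 2 in anti-miR-182 kidneys (-0.77 ± 0.15, SE; limma, adjusted p = 0.00252; -0.57 relative to the median). In placebo kidneys it had 6.33 to 6.76 at day 7 against 7.23 to 7.43 at day 2 (-0.79 ± 0.15, SE; adjusted p = 0.00228; -0.61 relative to the median). Both falls passed under all 3 scalings. The related genes Sfrp4 and Sfrp2 thus moved in opposite directions, while Sfrp1 (-0.05 under anti-miR-182, -0.21 in placebo) and Sfrp5 (-0.22 under anti-miR-182, -0.29 in placebo) did not pass.

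Dkk2 rose in placebo kidneys, with 8.71 to 8.93 at day 7 against 8.10 to 8.36 at day 2 (0.65 ± 0.14, SE; limma, adjusted p = 0.00539; 0.83 relative to the median). Under anti-miR-182 its difference was 0.29 (adjusted p = 0.138), and it passed there after centring (0.47, adjusted p = 0.0268) and after quantile normalization (0.52, adjusted p = 0.0186). Wif1 rose under anti-miR-182, with 6.25 to 6.43 at day 7 against 5.92 to 6.05 at day 2 (0.34 ± 0.11, SE; adjusted p = 0.0294; 0.54 relative to the median). That call ended without day 2 replicate 2, day 7 replicate 2 or day 7 replicate 3 of the treated kidneys, and with the animal-number covariate (0.29, adjusted p = 0.134). In placebo it differed by 0.26 (adjusted p = 0.0827), and it passed there after centring (0.40, adjusted p = 0.0177) and after quantile normalization (0.36, adjusted p = 0.0303).

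Among the ligands, 7 of 19 Wnt genes fell under anti-miR-182 (36.8%, against 24.9% of all genes) and 4 of 19 in placebo (21.1%, against 23.7%), and 0 rose in either as deposited. The largest falls under anti-miR-182 were those of Wnt8b (-0.59, adjusted p = 0.0115 in limma), Wnt5b (-0.58, 0.0048), Wnt6 (-0.51, 0.00752) and Wnt10b (-0.47, 0.0112), and Wnt11, Wnt7a and Wnt9b also passed. In placebo, Wnt7a (-0.48, 0.0159), Wnt6 (-0.44, 0.0148), Wnt1 (-0.42, 0.0367) and Wnt5b (-0.37, 0.0387) fell. Relative to the median of all genes these falls were -0.39 or smaller in size. Of these falls, the one of Wnt5b under anti-miR-182 passed after centring too (-0.39, adjusted p = 0.0395). After quantile normalization the falls of Wnt5b (-0.41, adjusted p = 0.0268) and Wnt6 (-0.34, 0.0422) under anti-miR-182 passed. After centring Wnt2b rose under anti-miR-182 (0.46, 0.0421) and Wnt7b in placebo (0.40, 0.035). As deposited, the Wnt5b, Wnt6, Wnt8b and Wnt10b calls under anti-miR-182 were kept in all 12 fits without 1 array. Those of Wnt7a, Wnt11 and Wnt9b were lost in 2 to 4 of the 12, all 3 of them without day 7 replicate 1 of the treated kidneys. In placebo the Wnt6 call was lost in 1, Wnt7a in 2, Wnt5b in 4 and Wnt1 in 5 of the 12, all 4 of them without day 2 replicate 1 of placebo. As a family the ligands were higher at day 7 for 1 of 19 under anti-miR-182 and 6 of 19 in placebo as deposited, but for 8 of 19 under anti-miR-182 and 10 of 19 in placebo after centring. Wnt10b and Wnt1, which are neighbours on chromosome 7, differed by -0.47 and -0.29 under anti-miR-182 and by -0.24 and -0.42 in placebo. Wnt6 and Wnt10a, neighbours on chromosome 9, differed by -0.51 and -0.07 under anti-miR-182 and by -0.44 and -0.12 in placebo.

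Of the receptors, Fzd1 fell under anti-miR-182 (-0.40, adjusted p = 0.0375 in limma) and in placebo (-0.38, 0.0466). Ror2 (-0.39, 0.0219) and Fzd10 (-0.47, 0.0397) fell under anti-miR-182. Ryk differed by 0.15 under anti-miR-182 (adjusted p = 0.328; 0.38 and 0.0286 after quantile normalization) and fell in placebo (-0.37, 0.0245). None of these 4 receptors passed after centring in the treatment named. Of 12 fits without 1 array, the Fzd1 call was lost in 3 under anti-miR-182 and 7 in placebo, Ror2 in 2, Fzd10 in 7 and Ryk in 5, with losses spread over arrays of both days. Fzd5 differed by 0.30 under anti-miR-182 (adjusted p = 0.0579), which passed after centring (0.48, adjusted p = 0.0158). Fzd6 differed by 0.19 under anti-miR-182 (adjusted p = 0.171). It passed there after centring (0.38, adjusted p = 0.0307) and after quantile normalization (0.42, adjusted p = 0.0162). Axin2 differed by -0.23 under anti-miR-182 and -0.12 in placebo, Tcf7 by -0.14 under anti-miR-182 and -0.08 in placebo, and Lef1 by 0.24 under anti-miR-182 and 0.19 in placebo, and none of them passed as deposited. Lef1 passed under anti-miR-182 after centring (0.42, adjusted p = 0.0261).

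**Figure D4:**
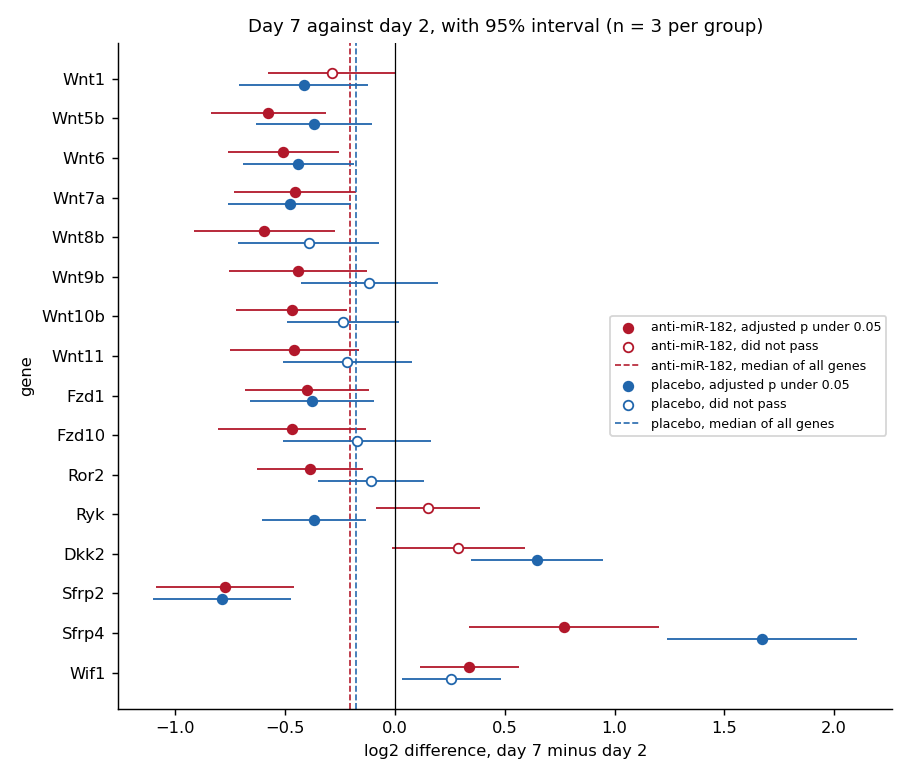
Log2 difference of day 7 against day 2 for the 16 members that passed in at least 1 treatment, with 95% intervals from limma (3 animals per group); filled points passed an adjusted p under 0.05, and dashed lines are the medians of all genes (-0.21 under anti-miR-182, -0.18 in placebo). Sfrp4 lies farthest to the right and Sfrp2 farthest to the left in both treatments, and all 8 Wnt ligands shown lie left of 0.

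Fibroblast and macrophage markers moved with time in the same direction as Sfrp4. The fibroblast and matrix list was higher at day 7 for 7 of 11 genes under anti-miR-182 (median 0.25, 2 passed) and for 10 of 11 in placebo (median 0.47, 4 passed), and Postn, which encodes the matrix protein periostin, rose in both (1.62 under anti-miR-182, adjusted p = 0.0413, and 2.98 in placebo, adjusted p = 0.00215, in limma). Macrophage genes were higher for 8 of 9 under anti-miR-182 (2 passed) and for 9 of 9 in placebo (4 passed). Proximal tubule genes were lower for 10 of 10 under anti-miR-182 (4 passed) and 10 of 10 in placebo (6 passed), and after centring for 8 and 9. Of all genes, 2.68% passed as higher and 24.9% as lower under anti-miR-182. In placebo these shares were 4.22% and 23.7%. Without the day 2 array that stands apart, the matrix count under anti-miR-182 was 5 of 11 higher (median -0.01). The part of these cell types in the member values was not tested.

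The wider pathway was read from lists of other Wnt genes. Between anti-miR-182 and placebo 0 genes of these lists passed in limma at either day, while 6 of their 78 genes at day 2 (7.69%, against 6.61% of all genes) and 1 at day 7 (1.28%, against 3.26%) had an unadjusted p under 0.05. At day 2 the list of Wnt secretion and surface turnover had 12 of 14 genes higher, with a median of 0.09. Kremen1, a receptor for Dkk proteins (0.42, adjusted p = 0.724 in limma), Notum, an enzyme that removes the lipid of Wnt proteins (0.30, 0.754), and Rspo4 (0.30, 0.754) led it. Without replicate 3 Kremen1 was at 0.56. The list of Dishevelled, the destruction complex and beta-catenin was split 8 to 8 at day 2, with Tnks2 (-0.20, adjusted p = 0.764 in limma) leading. At day 7 it had 6 higher and 10 lower (7 and 9 after centring). At day 2 Gsk3a (0.27), Gsk3b (0.04) and Tnks (0.04) turned to higher without replicate 3, and Dvl2 (-0.02) to lower. Of 13 nuclear partners of beta-catenin 5 were higher and 8 lower on both days (7 and 6 at day 7 after centring). The day 2 split depended on replicate 3. Without it Ctbp2 (0.002), Pygo1 (0.04) and Pygo2 (0.12) turned to higher and Tle4 (-0.08) to lower. The corepressor Tle3 was at -0.37 at day 2 (adjusted p = 0.728 in limma), and at -0.21 without replicate 3. Planar cell polarity genes were split 7 to 7 at day 2 and 4 to 10 at day 7. Of these, Camk2d (0.14) and Prickle1 (0.10) turned to higher at day 2 without replicate 3, and Celsr3 (-0.01) to lower. Of 21 reported target genes of beta-catenin, 12 were higher and 9 lower at day 2 (9 and 12 after centring), and 9 higher and 12 lower at day 7. The hyaluronan receptor Cd44 was lower at day 2 (-0.70, adjusted p = 0.662 in limma), at -0.49 without replicate 3. Myc was lower too (-0.42, 0.754), at -0.21 without replicate 3. The matrix protein fibronectin, Fn1, was lower at day 7 (-0.63, 0.999).

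Over time, genes of these lists passed in both directions as deposited. Of the 78 genes together, 4 rose and 9 fell under anti-miR-182 (5.13% and 11.5%, against 2.68% and 24.9% of all genes), and 3 rose and 10 fell in placebo (3.85% and 12.8%, against 4.22% and 23.7%). Cthrc1, a secreted matrix protein that binds Wnt complexes, rose in anti-miR-182 kidneys (1.31 ± 0.27, SE; limma, adjusted p = 0.00437) and in placebo kidneys (1.18 ± 0.27, SE; 0.00756). Ccn4, a matricellular protein named as a target of beta-catenin, rose in both (0.48, 0.0165 under anti-miR-182, and 0.67, 0.00281 in placebo). Of the 16 genes of Dishevelled and the destruction complex, 5 fell under anti-miR-182 and 4 in placebo, among them the ubiquitin ligase subunit Btrc (-0.51 under anti-miR-182, adjusted p = 0.00329; -0.38 in placebo, 0.0139). Dvl1, a Dishevelled protein that relays the signal from Frizzled, fell under anti-miR-182 (-0.38, 0.022) and in placebo (-0.34, 0.0339), and so did the casein kinase Csnk1a1 (-0.34, 0.0242 under anti-miR-182, and -0.39, 0.013 in placebo). Relative to the median of all genes these 3 lay between -0.31 and -0.14. The polarity genes Vangl1 (-0.66, 0.00547 under anti-miR-182, and -0.51, 0.0197 in placebo) and Rhoa (-0.34, 0.0275 under anti-miR-182, and -0.38, 0.0157 in placebo) fell in both. Of 13 nuclear partners 1 rose under anti-miR-182, the transcription factor Tcf7l2 (0.43, 0.0314), and 2 fell in placebo, Tle3 (-0.44, 0.0319) and Pygo2 (-0.50, 0.044). Of 21 reported targets 2 rose and 1 fell in each treatment, with Plaur, the receptor of urokinase, the one that fell (-0.55, 0.00232 under anti-miR-182, and -0.34, 0.027 in placebo).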

How the data were processed

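RNA was measured on 1-colour arrays in 12 rat kidneys. The deposited values are log2 signals made by the authors with RMA, per the submitters' processing notes; its version and the genome build were not found in those sources. Per the labels, 200 ng of Trizol-extracted RNA was amplified and labelled with biotin. Groups and days come from the sample titles, although another label speaks of a biopsy at zero hours. Values were used as deposited. Of 36685 rows 18511 name 1 gene symbol, 575 several and 17599 are not listed; where a gene had several rows (291 genes), its brightest by mean was tested.

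With limma 3.58.1 (R 4.3.3) 1 mean for each of 4 groups was fitted over 18166 genes, with eBayes, and Benjamini-Hochberg adjustment ran over all genes of each of 6 comparisons. The steps were tested on simulated data. Members, lists and the rule for named genes (Ryk, Sfrp4, the 3 smallest unadjusted p in each direction at each day, the 5 largest rises and falls over time, up to 4 genes of a list) were chosen with earlier results of these data known. Genes named outside that rule were chosen after their values were seen. Correlations within groups were 0.978 or more, at most 18 values were identical in a pair of arrays, and all arrays were kept. The alternatives were a separate fit per day, an eBayes trend or its robust form, weighted arrays, filters on the dimmest 25% or 50% of genes, quantile normalization, median centring, rows of a gene averaged or tested singly, a covariate for animal numbers over 90, and each array left out. The number of arrays limits the precision.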

Additional observations from a re-analysis of the deposited data

How the results depend on the processing

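No member passed between treatments at day 2 or day 7 under the 23 settings tried, 12 of which leave out 1 array, or in the mean of both days and the difference between days under the 22 that span both days. All 651 values of the 30 named member results kept their direction. Of these, 615 stayed on the same side of the threshold and 36 no longer passed, all in the comparisons of days. The named members were picked for small p-values or large changes in the same data. Several settings, such as the eBayes forms and the filters on dim genes, leave a log2 difference unchanged. So does leaving out an array of a group not compared. The kept direction is therefore no measure of stability for the members at large. At day 2, 10 of 53 members turned sign without replicate 3 of the treated group. For Ryk at day 2 the log2 difference ran from -0.62 to -0.51 (adjusted p in limma 0.307 to 0.999), and for Sfrp4 at day 7 from -1.18 to -0.68 (0.0758 to 1). For day 7 against day 2 under anti-miR-182, 13 members passed as deposited and 4 without the dimmest 50% of genes, which leaves 20 members. With 1 array left out it was 7 to 15, with 7 without day 7 replicate 1 and 8 without day 7 replicate 3 of the treated kidneys. In placebo, 9 members passed as deposited, 5 without the dimmest 50% of genes and 5 after quantile normalization. With 1 array left out it was 3 to 10, with 3 without replicate 1 of placebo at day 2 and 4 without replicate 2 of placebo at day 7. Fewer samples or genes were tested in these settings, and for quantile normalization the cause was not tested. For the fits without the arrays named here or without dim genes, shares of all genes are not given. Those counts are therefore not read as particular to the members. No paired analysis was possible because the labels give each array a different animal code and no replicate number shared between groups. Leaving out dim genes removes Sfrp4 and Rspo3. RMA values carry no detection call, so how far a dim member lay above background was not tested.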
